A study of Mus musculus with 12 samples.

Results

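H/ACA snoRNAs and scaRNAs were described in mouse liver as the 115 genes, of 3717 in the deposited count table, whose names begin with Snora (98 genes) or Scarna (17 genes). The animals were male C57BL/6 mice fed chow or the diet that the labels call HFCF without giving the words behind the letters. Livers were taken after 1 month on the diet, at 3 months of age, or after 3 months on it, at 6 months of age, so time on the diet and age cannot be told apart. Each of the 4 groups held 3 libraries, which the design text calls biological replicates. The samples compared here carry no transgene or deletion in their labels, where they are titled WT. In whole liver, fewer cells of a type and less RNA per cell cannot be told apart.

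H/ACA snoRNAs are nuclear RNAs that pair with ribosomal RNA and direct the conversion of chosen uridines to pseudouridine. They fold into a pair of hairpins, joined by a hinge that carries the H box, ANANNA, and followed by an ACA box near the 3′ end. The proteins dyskerin, Nop10, Nhp2 and Gar1 bind each of them, and dyskerin is the enzyme. ScaRNAs work in Cajal bodies and guide modification of the small nuclear RNAs of the spliceosome. Some scaRNAs are of the H/ACA type, some of the C/D type that guides methylation, and some join both types in 1 molecule. In mammals most H/ACA snoRNAs are cut from introns of host genes.

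The annotated sequences fitted the class named on the label for most members. A sequence of the annotated length was at hand for 109 members, with a median length of 134 bases. ACA stood within the last 8 bases of 94 of them (86.2%), against 14 of 111 C/D box snoRNAs (rows named Snord; 12.6%). The H box letters ANANNA, on the strand of the RNA, stood in the middle of 3 equal parts of 98 members (89.9%) and of 36 Snord genes (32.4%), which are shorter, with a median of 76 bases. In a predicted minimum free energy fold, ANANNA lay unpaired between stems in 60 members (55%) and in 0 Snord genes. A letter match is a description, not a mapped binding site. Snora16a, Snora44 and Snora61 lie in 1 host gene, Snhg12. They are shown because they share a host and differ widely in level. Capitals mark the ANANNA letters nearest the middle and the ACA nearest the end. For none of these 3 did the predicted fold place ANANNA unpaired between stems, so the middle capitals are a letter match only. No ACA falls in the last 8 annotated bases of Snora44. The sequences are from GENCODE release M21 on mm10, 5′ to 3′.
Snora16a, chr4:132309465-132309600, plus strand: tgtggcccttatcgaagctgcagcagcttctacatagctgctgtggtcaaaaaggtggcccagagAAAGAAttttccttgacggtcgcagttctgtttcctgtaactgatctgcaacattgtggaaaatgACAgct
Snora44, chr4:132309941-132310069, plus strand: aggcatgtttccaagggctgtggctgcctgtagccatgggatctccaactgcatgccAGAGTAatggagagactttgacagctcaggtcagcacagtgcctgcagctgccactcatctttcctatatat
Snora61, chr4:132310240-132310369, plus strand: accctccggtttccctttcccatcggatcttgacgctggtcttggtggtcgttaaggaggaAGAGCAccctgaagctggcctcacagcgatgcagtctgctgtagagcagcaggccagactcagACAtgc

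The scaRNAs were more mixed, as their known structures are. Of 16 Scarna sequences, 10 (62.5%) had ACA in the last 8 bases, 5 (31.2%) had the C box letters TGATGA in the first 15 bases, and 6 (37.5%) had the D box letters CTGA in the last 15. Among C/D box snoRNAs, TGATGA was found in 55% and CTGA in 91.9%. Scarna9, a C/D scaRNA that in human guides methylation of U2, shows both boxes in capitals.
Scarna9, chr9:15326264-15326333, minus strand: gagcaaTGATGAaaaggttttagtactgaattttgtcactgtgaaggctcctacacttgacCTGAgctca

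Another 4 members are shown because annotated microRNAs (miRNAs) lie inside them; the mature arms, from RefSeq on GRCm38.p6, are in capitals. These arms sit in the 3′ part of each RNA. Related miR-1843 arms lie in Scarna3b (miR-1843a) and Scarna3a (miR-1843b), SNORA58 holds miR-3068, and Snora36b holds miR-664.
Scarna3b, chr12:80391613-80391751, minus strand: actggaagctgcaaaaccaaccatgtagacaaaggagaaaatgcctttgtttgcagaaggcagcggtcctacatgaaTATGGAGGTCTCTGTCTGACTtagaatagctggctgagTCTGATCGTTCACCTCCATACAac
Scarna3a, chr1:159340283-159340422, plus strand: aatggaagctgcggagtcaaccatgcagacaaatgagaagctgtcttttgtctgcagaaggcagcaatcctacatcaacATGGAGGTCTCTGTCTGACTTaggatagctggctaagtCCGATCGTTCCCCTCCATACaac
SNORA58, chr12:87437682-87437817, minus strand: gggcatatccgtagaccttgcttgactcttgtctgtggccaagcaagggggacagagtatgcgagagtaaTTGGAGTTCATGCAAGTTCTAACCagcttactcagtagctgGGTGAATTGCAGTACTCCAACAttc
Snora36b, chr1:185242907-185243038, plus strand: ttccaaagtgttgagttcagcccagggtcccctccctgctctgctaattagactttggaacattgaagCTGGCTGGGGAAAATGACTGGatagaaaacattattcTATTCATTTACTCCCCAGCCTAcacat

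Table totals ran from 2539388 to 5255906 counts per library, snoRNA and scaRNA totals from 202640 to 456194, and the members' totals from 12884 to 27539. Levels below are CPM, counts divided by a library total and multiplied to a round number, here of the snoRNA and scaRNA total, after scaling by TMM factors, which even out composition between libraries. All 10 transcripts and miRNAs of the hepatocyte list had a row in the table. Chow replicate 2 at 1 month stood apart. Its hepatocyte list summed to 60300 CPM of the table against 70060 to 83150 elsewhere, its mesenchymal list (4 of 6 genes in the table) to 19830 against 7323 to 13850, and the pancreas list (1 of 5, Mir375) to 24.45 against 1.108 to 3.21. The epithelial list (6 of 8) was at 2453 there and at 698.3 to 2552 in the other libraries. SnoRNA and scaRNA counts made up 10.64% of its table and 4.92% to 8.974% of the others. Before TMM factors, it was the highest library per snoRNA and scaRNA total for 40 members (34.8%) and 22 of 124 Snord genes (17.7%). On that unscaled measure HFCF replicate 3 at 3 months was the highest for 25 members (21.7%) and 30 Snord genes (24.2%). These libraries had the largest TMM factors, 1.155 and 1.128, which lower their scaled levels. Mitochondrial rRNA was 2.54% of the table in chow replicate 2 at 1 month and 1.08% to 2.16% in the others. At 1 month the mesenchymal list differed between the diets without overlap, at 9840 to 19830 CPM of the table in chow and 7881 to 9571 in HFCF. At 3 months the leukocyte, epithelial, endothelial and erythroid lists differed between the diets without overlap. The epithelial list was at 1324 to 2552 CPM of the table in HFCF and at 1109 to 1187 in chow. The leukocyte list (7 of 9) summed to 712.1 to 1368 CPM of the table in HFCF and 531.7 to 657 in chow, the endothelial list (1 of 3, Mir126) to 21670 to 27640 and 18950 to 21260, and the erythroid list (2 of 5) to 1150 to 1431 and 857.8 to 954.2. The part these differences play in the results, the diet values at 1 month and 3 months included, was not tested.

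Members took a small share of snoRNA and scaRNA counts in each group. The 3 chow libraries at 1 month had shares of 5.953%, 7.811% and 5.426% (6.40% ± 1.25, SD, n = 3). HFCF libraries at 1 month had 5.793%, 5.991% and 5.751% (5.85% ± 0.128). At 3 months the shares were 6.358%, 5.657% and 5.958% in chow (5.99% ± 0.352) and 6.235%, 6.881% and 6.755% in HFCF (6.62% ± 0.342). The HFCF and chow ranges overlapped at both times. The remaining counts were from C/D box snoRNAs, led by Snord104 with 8.937% to 11.85% of the class.

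A few members supplied a large part of the members' counts. Snora16a alone gave 9.45% of them, and the 6 most abundant, Snora16a, Scarna3b, Scarna17, Snora28, Snora31 and Snora68, gave 39.4% together. Genes were compared per kilobase of annotated length; whether counts scale with length in these libraries was not tested. On that scale levels ran from 56.95 to 49860 with a median of 1026. Scarna17, a C/D scaRNA that lies between genes, was highest at 49860, followed by Snora16a at 43420, Scarna3b at 37430, Snora28 (host Eif5) at 30070 and Snora31 (host Tpt1) at 22380. Group means per kilobase ran from 45420 to 56450 for Scarna17, from 34420 to 46980 for Snora16a and from 31170 to 41260 for Scarna3b. The ranges of Snora16a overlapped those of both neighbours, with Scarna17 below it in chow at 1 month and Scarna3b above it in HFCF at 3 months.

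**Figure D1:**
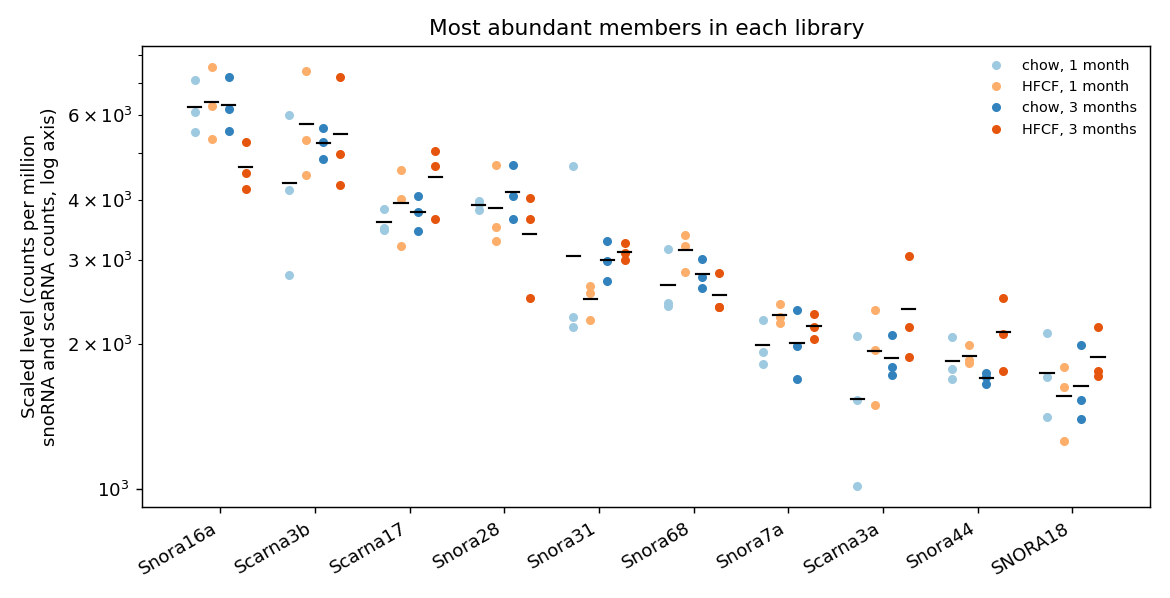
Scaled level (CPM of the snoRNA and scaRNA total, log axis) of the 10 members with the highest mean level; each point is 1 library and each bar a group mean of 3 libraries. Snora16a is lowest in the 3 HFCF libraries at 3 months (4216 to 5282), and the point far above the others for Snora31 is chow replicate 2 at 1 month (4708).

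Most members lay within a host gene. A host on the same strand was found for 108 members in 87 hosts. Of these, 71 lay in an intron and 37 overlapped an annotated exon. Another 4 lay between genes, and 3 had no host on their strand. Hosts were ribosomal protein genes for 19 members (median level 1720 per kilobase), translation factor genes for 10 (1030), Snhg genes, which are noncoding snoRNA hosts, for 9 (1100), and other genes for 70 (714). The ranges of these classes overlapped widely, from 160 to 21200 for the ribosomal protein hosts and from 56.9 to 37400 for the other hosts.

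Members of 1 host, which share its transcription, often differed in level. Among 15 hosts with more than 1 member, the highest and lowest member differed per kilobase by 1.11-fold (Rpl5, with both SNORA66 copies) to 136-fold (Taf1d). The SNORA66 copies are 94.7% identical, so the split of reads between them is uncertain. Within Taf1d, SNORA18 was at 13040, SNORA8 at 786.3, SNORA1 at 675.2 and SNORA40 at 95.72 per kilobase. In Snhg12, Snora16a was at 43420, Snora44 at 14660 and Snora61 at 4883, an 8.89-fold range across neighbouring RNAs. Within Kansl2, Snora34 was at 5754 and Snora2b at 187.4, a 30.7-fold range. The table's host rows stood in differing relation to these RNAs. In Rps2, Rpl30 and Eif4a2 the counts of the snoRNAs inside came to 99.43%, 98.75% and 99.69% of the host row. In Snhg12 the snoRNA counts exceeded the host row, at 142.1% of it. The rows of Eif5, Ipo7 and Slc25a3 held 170, 156 and 284 counts over the 12 libraries, far below the 14569, 4219 and 6776 counts of the snoRNAs inside, so these host rows cannot hold all the snoRNA reads.

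**Figure D2:**
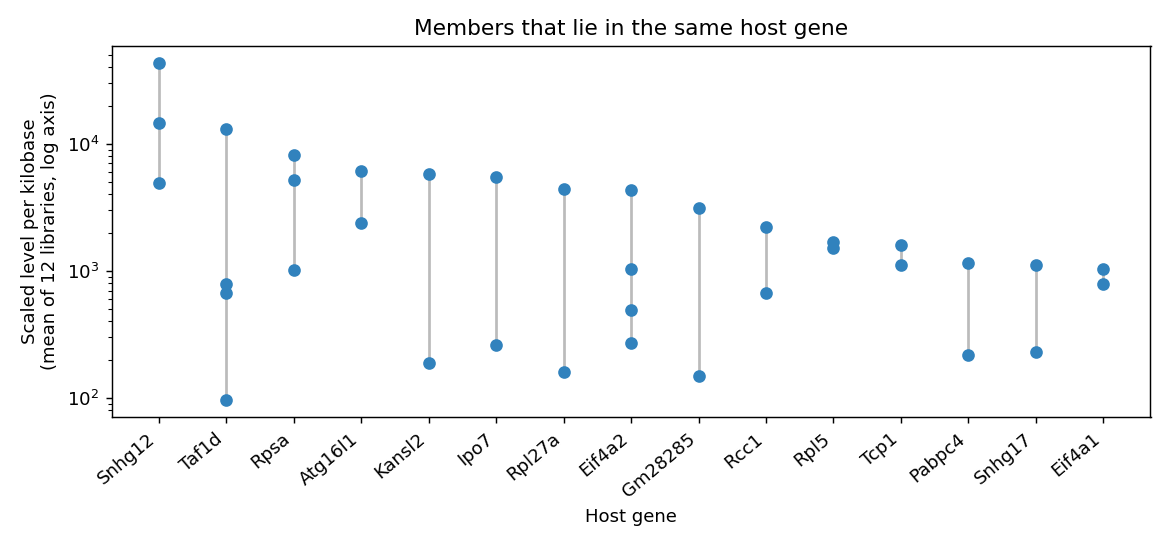
Scaled level per kilobase (mean of 12 libraries, log axis) of each member, drawn for the 15 host genes that hold more than 1; lines join members of the same host. The span within Taf1d is 136-fold and that within Rpl5, between copies that are 94.7% identical, 1.11-fold.

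The first comparison asked which members differ between HFCF and chow livers after 1 month. The number of members called changed was 0 of 102 that passed the filter on low counts, by edgeR's quasi-likelihood test at a Benjamini-Hochberg adjusted p under 0.05 over all 2503 genes tested. Of all genes tested, 0.0799% were called. DESeq2 and limma-voom also called 0 members. At an unadjusted p under 0.05 edgeR gave 7 members, all lower in HFCF, against 5.95% of all genes. The members' median log2 fold change was 0.03, beside 0.01 for all genes tested. Libraries of the groups did not overlap for 7 members (6.86%), against 6.71% of all genes. The 95% intervals of 54 members lay within a 2-fold change either way, so for the other 48 a 2-fold difference was not excluded at this depth.

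The smallest p at 1 month belonged to SNORA48 in an intron of Nap1l1, at levels of 157.8, 88.37 and 201.4 in chow and 42.01, 41.48 and 93.49 in HFCF. HFCF replicate 3 lay above chow replicate 2, so the groups overlapped. Its log2 fold change was -1.29 ± 0.44 (SE), with an adjusted p of 0.592 by edgeR's quasi-likelihood test. SNORA29 in G3bp1, at 118.3, 137.5 and 246.7 in chow, was at 49.02, 89.86 and 93.49 in HFCF. Its groups did not overlap, and the log2 fold change was -1.10 ± 0.40 (edgeR adjusted p = 0.667). SNORA26 in Mia2 was at 294.3, 81.01 and 445.5 in chow and 73.53, 86.41 and 145.9 in HFCF. Chow replicate 2 fell inside the HFCF range, and the log2 fold change was -1.40 ± 0.59 (edgeR adjusted p = 0.80).

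Another 4 of the 7 members were highest in chow replicate 2, the library that stood apart. Snora23, in Ipo7, was at 570.4, 2482 and 923.7 in chow and 861.3, 591 and 841.4 in HFCF. SNORA57 was at 97.08, 481.1 and 211.4 in chow and 140, 96.78 and 166.4 in HFCF. In both, that library was the highest of its group and the other chow libraries overlapped HFCF. With it left out, the log2 fold change at 1 month moved from -0.79 to 0.03 for Snora23 and from -0.97 to -0.20 for SNORA57. For Snora75 (U23, in the nucleolin gene Ncl) it moved from -1.01 to -0.36, and for Snora33, in the ribosomal protein gene Rps12, from -0.93 to -0.36.

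At 3 months the same question gave 0 of 102 members called by edgeR's quasi-likelihood test, where 1.48% of all genes were called, 31 higher and 6 lower in HFCF. DESeq2 and limma-voom again called 0 members. An unadjusted p under 0.05 was reached by 6 members, 5 higher and 1 lower, against 11.8% of all genes. Libraries did not overlap for 14 members (13.7%), against 22.9% of all genes and 28.5% of Snord genes. The median log2 fold change was 0.08 for members, -0.03 for Snord genes and 0.20 for all genes tested. With TMM over the whole table the members' median became -0.12 and that of all genes -0.03, so the sign of the members' median depended on the scaling. The intervals of 50 members lay within a 2-fold change.

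Among the abundant RNAs, Snora16a came nearest at 3 months. It was at 7191, 6162 and 5564 in chow and 4544, 5282 and 4216 in HFCF, and the groups did not overlap. Its log2 fold change was -0.43 ± 0.23, with a 95% interval of -0.89 to 0.03 and an adjusted p of 0.471 by edgeR's quasi-likelihood test. At 1 month its levels were 7108, 6098 and 5537 in chow and 6264, 7555 and 5347 in HFCF, a log2 fold change of 0.03.

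The smallest p at 3 months belonged to SNORA55, at the copy in Pabpc4 that starts at chr4:123291344. Its counts were few, with a mean of 9.583 per library over the 12 libraries. Its levels were 9.83, 28.93 and 14.88 in chow and 46.02, 22.44 and 68.23 in HFCF, with overlap. The log2 fold change was 1.35 ± 0.55 (edgeR adjusted p = 0.324), and 0.89 without HFCF replicate 3. The pair of SNORA71 copies in Snhg17 had values of opposite sign. Mean counts per library were 45.75 for the copy at chr2:158356424 and only 10.33 for the copy at chr2:158359798. The copy that starts at chr2:158356424 was at 172, 227.8 and 178.5 in chow and 95.11, 103.2 and 153.5 in HFCF, while the copy at chr2:158359798 was at 24.58, 18.08 and 8.926 and at 36.82, 26.93 and 65.39. Neither pair of groups overlapped. Their log2 fold changes of -0.71 ± 0.33 and 1.42 ± 0.61 had adjusted p of 0.399 and 0.353 by edgeR's quasi-likelihood test, and the second became 0.92 without HFCF replicate 3. These copies are 93.9% identical, and both SNORA55 copies 96.9%, so the split of short reads between them is uncertain.

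Scarna10 (U85), which in human guides both kinds of modification on U5 snRNA, was at 186.8, 173.6 and 157.7 in chow and 181, 260.3 and 412.2 in HFCF at 3 months. HFCF replicate 1 lay inside the chow range. The log2 fold change was 0.73 ± 0.34 (edgeR adjusted p = 0.401), and 0.31 without HFCF replicate 3. Scarna2, Scarna9, Scarna6 and Scarna17, scaRNAs from the fixed list, had smaller values at 3 months. Scarna6 is here the gene in Atg16l1 that starts at chr1:87784556. A SCARNA6 gene in the same host, from chr1:87776938, is 61.4% identical to it. Group means of that gene at 3 months were 628 in chow and 759.7 in HFCF. Log2 fold changes were -0.34 ± 0.29 for Scarna2, 0.39 ± 0.30 for Scarna9, 0.30 ± 0.25 for Scarna6 and 0.24 ± 0.23 for Scarna17, and for all 4 the interval held 0. SCARNA15 and SCARNA1, below the filter on low counts, had larger values of 1.61 and -0.80 when no filter was used (edgeR adjusted p = 0.463 and 0.728).

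**Figure D3:**
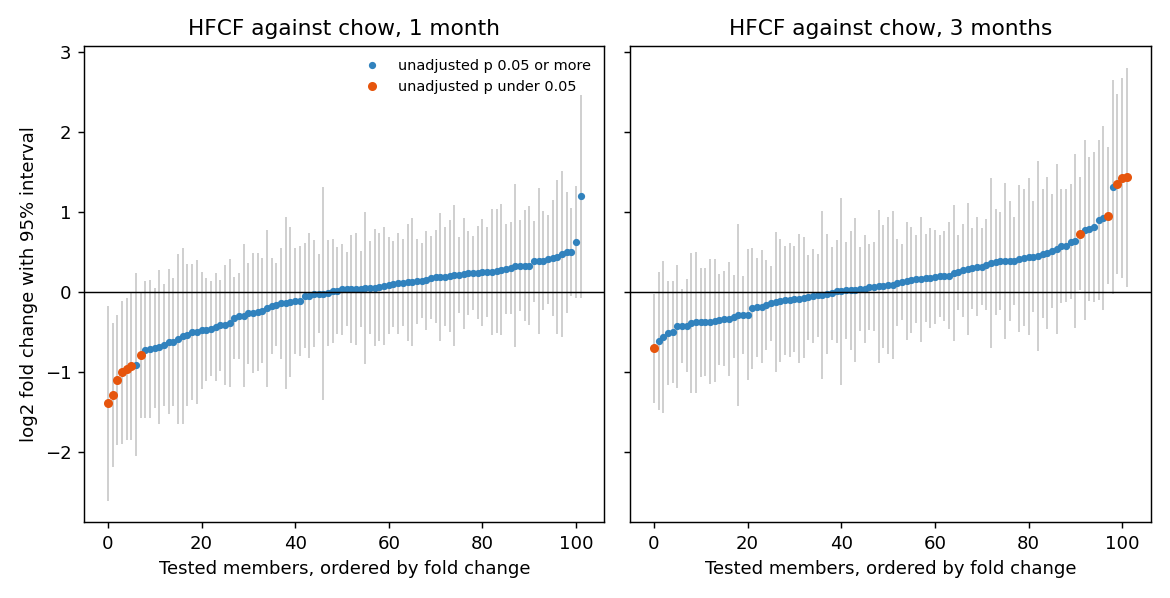
Log2 fold change of HFCF against chow with its 95% interval for the 102 tested members, ordered by value, at 1 month (left) and 3 months (right). Orange points have an unadjusted p under 0.05, 7 at 1 month and 6 at 3 months; none passed the adjusted threshold.

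Averaged over both times, the diet comparison called 0 of 102 members by edgeR's quasi-likelihood test, beside 1.92% of all genes; 9 members had an unadjusted p under 0.05, beside 12.9% of all genes. DESeq2 and limma-voom called 0. Snora43 on chromosome 2 had the smallest p. It was at 91.01, 135 and 115.8 in chow and 150.6, 235 and 145.9 in HFCF at 1 month, where the groups did not overlap. At 3 months it was at 167.1, 86.79 and 113.1 in chow and 196.4, 179.5 and 164.9 in HFCF, where chow replicate 1 lay above the lowest HFCF library. The averaged log2 fold change was 0.60 ± 0.24 (edgeR adjusted p = 0.259). SNORA62 in the ribosomal protein gene Rpsa, at the copy that starts at chr9:120128780, had -0.49 ± 0.22 (edgeR adjusted p = 0.34). The Snora62 copy in Rpsa that starts at chr9:120130415 is 66% identical to it and did not share its direction. Group means of that copy were 732.5 in chow and 862.7 in HFCF at 1 month, and 734.1 and 751.4 at 3 months. Scarna10 had 0.53 ± 0.24 (edgeR adjusted p = 0.341). Snora23 had -0.59 ± 0.27 (edgeR adjusted p = 0.344); without chow replicate 1 at 1 month it was at -0.77 with an edgeR adjusted p of 0.0456, in a fit that called 238 genes of the whole table against 48 with all libraries. Without chow replicate 2 at 1 month, Snora23 was at -0.17 and SNORA62 at -0.20, and without HFCF replicate 3 at 3 months Scarna10 was at 0.30. The interval of 78 members lay within a 2-fold change, more than at either time alone.

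Members with roles in ribosomal RNA processing were measured at modest levels. Snora73a and Snora73b (U17), which take part in the cleavage that frees 18S rRNA, lie in introns of Rcc1. Averaged over both times, Snora73a had a log2 fold change of 0.39 ± 0.24 and Snora73b of 0.22 ± 0.25, and the sequences are 96.6% identical. Snora74a (U19), which in human acts on the spacer between 5.8S and 28S rRNA, was at 663.5, 603.9 and 589.1 in chow and 472.5, 462.3 and 449.2 in HFCF at 3 months, with no overlap. At 1 month it was at 682.6, 1051 and 589 in chow and 602.2, 518.4 and 613.4 in HFCF, with overlap. Its averaged log2 fold change was -0.42 ± 0.20 (edgeR adjusted p = 0.365), and -0.28 without chow replicate 2 at 1 month. SNORA74 in the same host, Gm28285, rested on few reads, with a mean of 6.667 counts per library over the 12 libraries. It was at 4.915, 18.08 and 14.88 in chow and 36.82, 17.95 and 51.17 in HFCF at 3 months, with overlap. Its log2 fold change there was 1.44 ± 0.67 (edgeR adjusted p = 0.39), opposite in sign to the -0.42 ± 0.28 of Snora74a and the highest value of the tested members at 3 months. Among classical guides, Snora64 (in Rps2) had -0.16 ± 0.20 and Snora65 (in Rpl12) had -0.62 ± 0.29, with edgeR adjusted p of 0.836 and 0.356.

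The difference of the diet effect between 3 months and 1 month called 0 members by edgeR's quasi-likelihood test, beside 0.0799% of all genes, and so did DESeq2 and limma-voom; 6 members had an unadjusted p under 0.05, beside 5.47%. The change from 1 to 3 months called 0 members in chow, beside 0.0799%, and 0 in HFCF, beside 0.879%, by edgeR, DESeq2 and limma-voom. Unadjusted counts by edgeR were 4 members in chow, beside 8.71% of all genes, and 1 in HFCF, beside 9.55%. Libraries of the 2 times did not overlap for 8 members in chow, beside 11.2% of all genes, and for 9 in HFCF, beside 16%. That 1 was SNORA8, in Taf1d, at 87.53, 34.56 and 111.7 at 1 month and 88.97, 116.7 and 247.3 at 3 months in HFCF, with overlap. Its log2 fold change was 0.94 ± 0.43 (edgeR adjusted p = 0.502), and 0.34 without HFCF replicate 3 at 3 months.

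SNORA26 in Mia2, SNORA48 in Nap1l1 and SNORA29 in G3bp1, on different chromosomes, held the smallest p-values of the comparison of times in chow and also stood among the 4 smallest for the difference of diet effects. In chow at 3 months SNORA26 was at 54.07, 43.4 and 71.41, SNORA48 at 54.07, 54.25 and 83.31, and SNORA29 at 68.81, 97.64 and 95.21. Each of these values lay below that RNA's level in every chow library at 1 month. Log2 fold changes from 1 to 3 months in chow were -2.26 ± 0.64, -1.20 ± 0.45 and -0.93 ± 0.40, with edgeR adjusted p of 0.253, 0.40 and 0.513. Leaving out HFCF replicate 1 at 3 months, a library of neither group compared, brought the edgeR adjusted p of SNORA26 to 0.0398. In HFCF at 3 months 1 library differed from the other two. SNORA26 was at 331.3 in replicate 1 and at 49.37 and 36.96 in the others, SNORA48 at 199.4, 71.81 and 68.23, and SNORA29 at 159.5, 94.25 and 56.86.

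The difference of diet effects, on the log2 scale, was 2.71 ± 0.88 for SNORA26, 2.10 ± 0.63 for SNORA48 and 1.33 ± 0.57 for SNORA29, with edgeR adjusted p of 0.546, 0.546 and 0.768. Without HFCF replicate 1 at 3 months these became 0.98, 1.40 and 0.85, and the diet value of SNORA26 at 3 months went from 1.31 to -0.42. Across the 12 libraries, Pearson correlations of the log2 levels were 0.847 for SNORA26 with SNORA48, 0.758 for SNORA26 with SNORA29 and 0.812 for SNORA48 with SNORA29. These share their libraries and scaling, and the 3 were picked for similar contrasts. The Mia2 copy of SNORA26 is 97.5% identical to one in Psmd1, and the Nap1l1 copy of SNORA48 is 92.4% identical to one in Sec24a, so the locus of origin is uncertain.

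**Figure D4:**
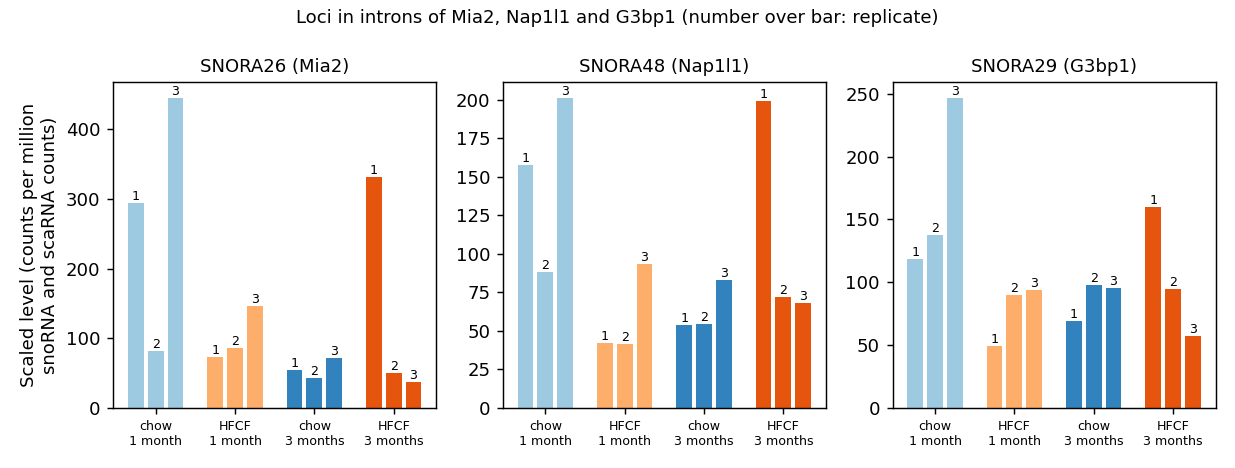
Scaled level (CPM of the snoRNA and scaRNA total) of SNORA26, SNORA48 and SNORA29 in each library, with the replicate number over each bar. Chow replicates 1 and 3 at 1 month and HFCF replicate 1 at 3 months stand high in SNORA26 and SNORA48.

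Members that hold annotated miRNAs were also described on the scale of the whole table, a view chosen after seeing the data. There were 8 of them: the 4 shown above, Snora34 (miR-1291), SCARNA16 (miR-6516), Scarna13 (miR-3069) and SNORA40 in Taf1d (miR-7650). None of the miRNAs has a row of its own in the table, and counts per locus do not separate their reads from those of the full-length RNA. In CPM of the whole table, Scarna3b was at 378.6, 342.9 and 370.4 in chow and 330.3, 407 and 387.7 in HFCF at 1 month. At 3 months it was at 421.8, 380.4 and 362 in chow and 374, 375.1 and 377.1 in HFCF. All 12 values lay within 1.277-fold of each other. In CPM of the snoRNA and scaRNA total, here without TMM factors, the 12 values spanned 2.367-fold. On the latter scale, chow replicate 2 at 1 month was the lowest library.

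TMM factors were applied to neither total in the values that follow. The coefficient of variation (CV, the SD over the mean of 12 libraries) of Scarna3b was 6.53% per table total and 23.1% per snoRNA total. For Scarna3a it was 10.9% and 27.5%, for SNORA58 11.7% and 27.01%, and for Snora36b 18.3% and 27.7%. Of 55 members with a mean count of at least 50, Scarna3b, Scarna3a and SNORA58 had the 3 lowest CVs per table total, and Snora36b ranked 6. The CV was lower per table total than per snoRNA total in 4 of 6 members that hold a miRNA and in 3 of the other 49. Snora34 and SCARNA16 were the 2 exceptions that hold one. Among members with none, the median CV was 30% per table total and 21.4% per snoRNA total. The level of SNORA58 was most like that of Scarna3a (Pearson r = 0.909 of log2 levels over 12 libraries), Snora41 (0.871) and Scarna3b (0.855), values that share libraries and scaling.

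**Figure D5:**
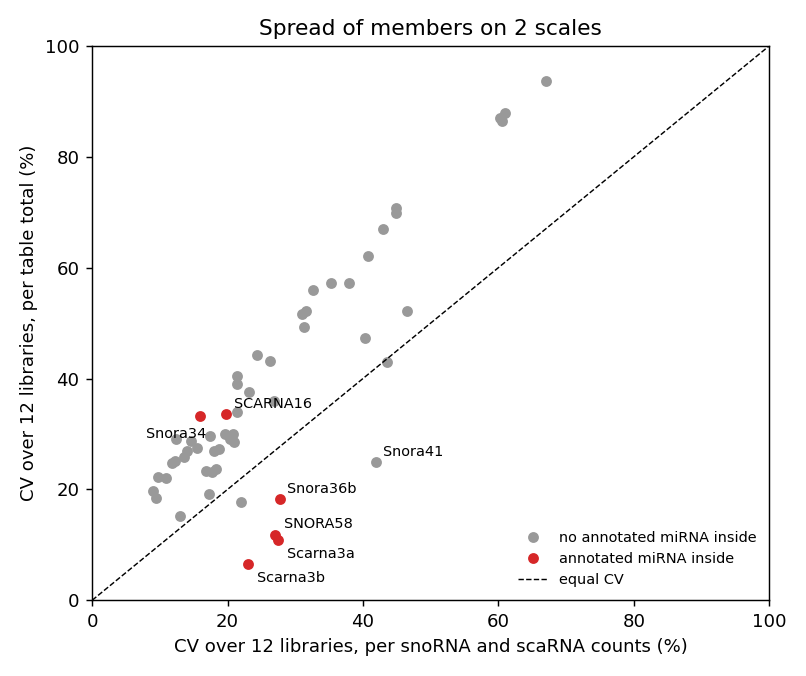
CV over the 12 libraries per table total against CV per snoRNA and scaRNA total, both in % and without TMM factors. Points are the 55 members with a mean count of at least 50. Red points hold an annotated miRNA, and the dashed line marks equal CV. Scarna3b, Scarna3a, SNORA58 and Snora36b lie below the line, and most other members lie above it.

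Diet values are given for the members with the lowest CVs per table total, none of which was called. On the snoRNA scale, averaged over both times, log2 fold changes were 0.23 ± 0.19 for Scarna3b, 0.33 ± 0.20 for Scarna3a and 0.44 ± 0.19 for SNORA58, with edgeR adjusted p of 0.698, 0.536 and 0.297. SNORA58 was among the members with the smallest p-values of that comparison. In CPM of the whole table, SNORA58 was at 86.39, 116.8 and 90.83 in chow and 93.95, 107.9 and 107.8 in HFCF at 1 month, with overlap. At 3 months it was at 95.3, 92.84 and 101 in chow and 122.3, 120.5 and 108.8 in HFCF. SNORA40 in Taf1d, below the filter on low counts, had 0.71 when no filter was used (edgeR adjusted p = 0.757). The miR-1843b-5p sequence also occurs in full inside Scarna3b, so reads of it cannot be assigned to 1 of the 2 loci.

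The 13 members below the filter were too scarce for the main test. SNORA32, which overlaps an exon of Top2a, the topoisomerase of dividing cells, was chosen after its values were seen. Its raw counts were 3, 3 and 1 in chow and 1, 1 and 0 in HFCF at 1 month, and 0, 1 and 0 in chow and 5, 8 and 11 in HFCF at 3 months. All HFCF libraries at 3 months lay above the other 9. With no filter on low counts, edgeR gave an unadjusted p of 0.00102 and an adjusted p of 0.0787 for the diet comparison at 3 months. Over the 12 libraries the row of Top2a held 40 counts against 34 for SNORA32. Whether the same reads were counted in both rows, and whether they came from the snoRNA or the host transcript, was not tested.

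Of 21 genes listed for the H/ACA particle, snoRNA assembly and Cajal bodies, 3 had a row: Nop10 with 2 to 16 counts per library, Tardbp with 8 to 23, and Nop56 with 2859 to 6490. Nop56 is a C/D particle protein whose gene hosts snoRNAs. Counts of Nop10, the H/ACA protein, were too few to compare.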

How the data were processed

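RNA of mouse liver was sequenced in 12 libraries, 3 in each of 4 groups. The deposited table holds whole-number read counts per gene and FPKM values, per the file headers. The FPKM values were computed by the authors and were used only to check library sizes. Coordinates are on mm10, the build in the submitters' processing notes. No source used here names the aligner, the counter or the strand setting. The labels' protocols name a small RNA kit and the design text a stranded total RNA kit, so which was used is not settled.

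Counts were tested with edgeR 4.0.16 (R 4.3.3): filterByExpr by group, library size as the sum of Snora, Snord and Scarna genes times TMM factors from them, 1 mean per group, robust quasi-likelihood test, and Benjamini-Hochberg adjustment over all 2503 genes tested. SE is the absolute log2 fold change over the square root of F. Intervals cover 95%. DESeq2 1.42.0 and limma 3.58.1 were alternatives. The code was checked on simulated data, in which it missed most changes of up to 2-fold. Coordinates and hosts came from GENCODE M21 (111 members matched), folds from RNAfold 2.7.2, and miRNAs from RefSeq matched over at least 18 bases. Members and lists were chosen with earlier results of these data known. Named members were the 8 smallest p-values of each diet comparison and the 4 smallest of the others, the 10 highest levels, and a fixed list.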

Additional observations from a re-analysis of the deposited data

How the results depend on the processing

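The number of members called was recomputed 142 times over 6 comparisons: 140 counts were 0 and 2 were 1. Leaving out single libraries gave 0 to 1 call for the diet comparison averaged over both times, where Snora23 was called without chow replicate 1 at 1 month (log2 fold change -0.77, edgeR adjusted p = 0.0456; 238 genes of the whole table were called there, against 48 with all libraries). It also gave 0 to 1 for 3 months against 1 month in chow, where SNORA26 (Mia2) was called without HFCF replicate 1 at 3 months (-2.26, edgeR adjusted p = 0.0398). The other 4 comparisons stayed at 0. Of 1251 recomputed fold changes of 54 named values, 14 changed sign and 2 passed the threshold. Leaving out each library in turn, the value of Snora23 at 1 month ran from -1.15 to 0.033 (without chow replicate 2) and that of SNORA26 (Mia2) at 3 months from -0.42 (without HFCF replicate 1) to 1.70. Averaged over times, Snora31 ran from -0.22 to 0.11 (without chow replicate 2 at 1 month) and SNORA18 from -0.077 (without HFCF replicate 3 at 3 months) to 0.10. With TMM over the whole table, Snora68 averaged over times became -0.091 and SNORA18 -0.13. SNORA18 was also below 0 with DESeq2 size factors (-0.011), in DESeq2 (-0.011) and with TMM within members (-0.00062). Whole-table TMM also moved the median of all genes at 3 months from 0.20 to -0.03. The share of counts from members in HFCF at 1 month was 5.62% when snoRNA genes were taken by annotated biotype. Without Snord104 the share was 6.61% in HFCF at 1 month, 6.74% in chow at 3 months and 7.33% in HFCF at 3 months. Taking Snord104 out of the total raises the share by arithmetic alone. For the other changes the cause was not tested. With the replicate number as a block, 0 members were called in each comparison. Libraries with the same number did not deviate together: 3 of 18 correlations were over 0.1 (lowest -0.264, highest 0.424), beside 13 of 36 for different numbers. Counts of a few reads per library limit the scarcer members, and p-values measure only the spread between these 12 libraries.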
